A study of Mus musculus with 12 samples.

Results

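The genes described here encode plasma proteins that visceral endoderm makes and secretes: albumin-like carriers, fibrinogen and other clotting proteins, protease inhibitors, fetuins, and proteins of complement and the acute phase. The list held 39 genes by name. A gene was measured where the annotation of the Affymetrix mouse array gave a probe set to it alone, and the probe set with the highest mean over the 12 arrays was read. This held for 37 genes of the 18193 measured in all, and Gc and C3 were dropped for lack of such a probe set. Amn1 is on the list but is a gene other than Amn (amnionless) and is not known as a plasma protein, so it is counted and described apart.

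Whole yolk sac was profiled in 4 groups of 3 arrays each, wild type and Norrin at embryonic days 8.5 (E8.5) and 10.5 (E10.5). In the Norrin groups (Z/Norrin mice) the secreted protein Norrin was expressed ectopically, from a conditional over-expression allele. Norrin acts on the receptor Frizzled4 and, through it, on beta-catenin, and the series asks what this does to transcription in the yolk sac. All 4 groups had a mixed C57Bl6/129 background and mixed sex, and each array carried RNA pooled from the yolk sacs of 3 to 5 embryos. The replicates are thus separate pools, litter and hybridisation day were not given, and neither was, in the sources used here, the cell type in which the allele was switched on.

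Visceral endoderm is the outer epithelium of the yolk sac. Before the liver takes over, it makes the plasma proteins of the embryo and hands them to the blood of the underlying vessels, while taking up maternal nutrients through endocytic receptors. Many of its secretory genes are read in hepatocytes as well, under transcription factors of the HNF and C/EBP families. The tissue label was checked against genes of visceral endoderm that are not on the list. In wild type at E8.5 the endocytic receptors Cubn and Amn had deposited log2 levels of 14.24 ± 0.14 and 12.82 ± 0.23 (SD, n = 3), and the transcription factor Hnf4a a level of 11.98 ± 0.08.

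Array medians lay between 6.59 and 6.73 (log2) at E8.5 and between 6.97 and 7.01 at E10.5. The difference between 3 prime and 5 prime probe sets of Actb, a sign of RNA breakdown, was 0.22 to 0.70 in wild type and 0.25 to 0.49 in Norrin at E8.5, and 0.23 to 0.35 and 0.15 to 0.49 at E10.5. For Gapdh this difference was 0.61 and 0.50 in the E8.5 replicates 2 of wild type and Norrin, and 0.02 to 0.15 on the other arrays of both stages. Hybridisation spike-ins were highest at E8.5 in the replicates 3 of both genotypes (12.38 and 12.36, the other E8.5 arrays 10.95 to 11.33). At E10.5 wild type replicate 2 stood apart for many of these genes, which is taken up with the E10.5 values. Ndp, the Norrin gene, had group means of 4.49 to 4.59, and since it is not given whether its probe set covers the transgene, it does not check the labels. The 2 stages were deposited from separate normalization runs, so that stage and run cannot be told apart.

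The 37 genes are partly neighbours in the genome (RefSeq, GRCm38.p6). Alb and Afp adjoin on chromosome 5 (chr5:90460870-90476602 and chr5:90490714-90508907). The 3 fibrinogen chains form a cluster on chromosome 3, with Fgg at chr3:83007724-83015056, Fga at chr3:83026153-83033627 and Fgb at chr3:83042246-83049863. Itih4, Itih3 and Itih1 lie side by side on chromosome 14 between 30886476 and 30943289. Ahsg, Fetub and Kng1 lie on chromosome 16 between 22892015 and 23082078.

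The stretches of 140 bases before the transcript start are shown for Afp and Fga, which are described at E8.5, and for Alb, F13b, Serpina1c and Saa4, which had the largest negative Norrin effects at E10.5. They are RefSeq promoter sequences of GRCm38.p6, printed 5′ to 3′ on the strand of the gene. Capitals mark matches to an HNF1 half-site (GTTAAT on either strand) or to a C/EBP motif (TTGCNNAA on either strand). These matches do not overlap each other. For F13b the stretch lies just inside the span of the gene, before the transcript start of the promoter table.
Afp, chr5:90490574-90490713, + strand: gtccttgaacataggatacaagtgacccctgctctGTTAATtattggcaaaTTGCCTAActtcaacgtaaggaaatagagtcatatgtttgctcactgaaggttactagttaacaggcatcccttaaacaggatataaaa
Fga, chr3:83026013-83026152, + strand: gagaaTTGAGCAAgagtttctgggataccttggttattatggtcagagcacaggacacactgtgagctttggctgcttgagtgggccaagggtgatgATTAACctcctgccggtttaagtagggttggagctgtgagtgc
Alb, chr5:90460730-90460869, + strand: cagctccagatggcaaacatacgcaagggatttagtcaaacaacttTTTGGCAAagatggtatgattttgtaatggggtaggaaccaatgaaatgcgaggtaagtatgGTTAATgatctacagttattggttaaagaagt
F13b, chr1:139501567-139501706, + strand: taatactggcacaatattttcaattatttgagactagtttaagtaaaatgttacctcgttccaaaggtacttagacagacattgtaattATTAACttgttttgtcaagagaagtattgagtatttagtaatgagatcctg
Serpina1c, chr12:103904951-103905090, - strand: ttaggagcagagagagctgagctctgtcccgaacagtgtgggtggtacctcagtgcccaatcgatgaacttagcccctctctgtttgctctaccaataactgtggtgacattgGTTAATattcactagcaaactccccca
Saa4, chr7:46732604-46732743, - strand: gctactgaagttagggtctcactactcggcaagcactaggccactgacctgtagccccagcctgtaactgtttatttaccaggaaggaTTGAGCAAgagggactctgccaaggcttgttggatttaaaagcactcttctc
RefSeq promoters were found for 31 of the 37 genes. Within 250 bases before the start the HNF1 half-site occurred in 9 of the 31 (29%), against 6.52% of 27025 promoters of all genes, and the C/EBP motif in 8 (25.8%), against 9.55%. The HNF1 half-site lay 32 bases before the start in Alb, 27 in Serpina1c, 43 in Fga, 51 in F13b and 105 in Afp. A GATA motif (AGATAA) was found in 5 promoters (16.1%, all genes 10.3%), a TCF/LEF motif (ATCAAAG), the kind through which beta-catenin acts, in 1, that of Serpind1 (3.23%, all genes 3.23%), and an HNF4 motif (CAAAGTCCA) in 0 (all genes 0.381%), each on either strand. These are matches of letters only.

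In wild type, most of these genes were higher at E10.5 than at E8.5. By limma, 28 of the 37 rose and 0 fell, where 32.5% of all genes changed and 25.4% rose. The median difference was 1.50 (log2) over the 37 genes and 0.14 over all genes. The largest rises were those of Kng1, the kininogen from which bradykinin is cut (log2 4.96, SE 0.58, adjusted p = 8.21e-05), Serpina1c, an alpha-1-antitrypsin (4.44, adjusted p = 1.39e-05), Alb, the main plasma carrier (3.96, adjusted p = 0.00234, and 2.66 without wild type E10.5 replicate 2), Itih2 (3.68, adjusted p = 7.8e-06) and the cell adhesion protein Vtn (3.19, adjusted p = 0.000267). Of the 37, 25 rose by more than 1 and 12 by more than 2.

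The 9 genes that did not pass were Afp, Cp, Azgp1, Serpina6, F5, F7, Pros1, Serping1 and Amn1. Afp, the fetal albumin, had little room to rise on this scale. On 8 of 12 arrays its value lay within 0.5 of the highest value on the array, so its change may be understated. Its other probe sets far from the top rose by 0.83 and 0.59 (limma, adjusted p = 0.00336 and 0.0281). The brighter ones gave -0.25 and 0.03 and did not pass. Other probe sets of Cp passed with 1.31, 0.61 and -0.40 (adjusted p = 0.000222, 0.00295 and 0.0303). For Amn1 another probe set passed with -0.55 (adjusted p = 0.00646). The remaining probe sets of Cp and Amn1 did not pass. Scaling moved the comparison of the stages in wild type. With arrays centred on their medians 23 of the 37 were higher and 3 lower (F5, Pros1 and Serping1), with 2340 higher and 4816 lower over all genes. With quantile normalization over all arrays 25 were higher and the same 3 lower, with 2909 higher and 3374 lower over all genes. As deposited the split over all genes was 4619 higher and 1296 lower. The median over all genes moved from 0.14 to -0.16 and -0.05 under these scalings, and that over the 37 genes to 1.20 and 1.46.

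At E8.5, ectopic Norrin changed 0 of the 37 genes by limma, where 0.077% of all genes were called. At an unadjusted p under 0.05 there were 10, against 1314 of all 18193 genes. Of the 37 effects, 30 were below 0, while 46.1% of all genes had effects above 0. The median was -0.28 (log2), against -0.02 over all genes. Same-numbered arrays of the 2 genotypes tended to deviate together, so the replicate number was also fitted as a block within each stage. This pairing was taken from the same values that were then tested, so adjusted p-values with the block may be too small. With this block, 9 genes were lower and 0 higher: Afp, Ambp, Fga, Fgg, Plg, Serpind1, Serpinf2, Spp2 and Cfi, where 0.61% of all genes were called lower. In 10 genes every Norrin pool lay below every wild type pool, which held for 6.01% of all genes. In 2, Pros1 and Serping1, every Norrin pool lay above, by 0.13 and 0.14 in the mean. The share of all genes with every Norrin pool above was not counted.

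Afp had levels of 14.52, 14.26 and 14.64 in the wild type pools at E8.5 and 13.13, 12.99 and 14.14 in the Norrin pools. The groups did not overlap, and Norrin replicate 3 lay closest to wild type. The effect was -1.05 (SE 0.24, adjusted p = 0.234, and 0.0215 with the block), and without Norrin E8.5 replicate 3 it was -1.41 and passed (adjusted p = 0.00381). The other probe sets of Afp gave -0.67, -0.61, -0.58 and -0.12 and did not pass. In whole tissue, fewer cells of a type and less RNA per cell cannot be told apart, here and in all that follows.

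The alpha and gamma chains of fibrinogen, the clot-forming protein, had the more negative effects of their cluster at E8.5. Fga had levels of 11.55, 10.91 and 12.06 in wild type and 9.74, 9.66 and 10.82 in Norrin, with no overlap and an effect of -1.43 (SE 0.37, adjusted p = 0.331, and 0.00415 with the block). Fgg had levels of 11.63, 11.33 and 12.35 against 10.44, 10.30 and 11.58, an effect of -1.0 (adjusted p = 0.559, and 0.0057 with the block). For Fgg, Norrin replicate 3 lay above wild type replicate 2, so the groups overlapped. Fgb, the beta chain, had levels of 11.40, 10.65 and 11.89 against 10.44, 10.22 and 11.57, and its effect of -0.57 passed neither way (adjusted p = 0.737, and 0.0765 with the block). In all 3 chains replicate 3 was the highest array of either genotype. Replicate 3 was the highest for 30 of the 37 genes in wild type and for 29 in Norrin, a share not counted over all genes. The replicates 3 are the E8.5 arrays with the highest spike-ins, whose part in the values was not tested. In all 3 chains replicate 2 was the lowest array of either genotype. The replicates 2 are the E8.5 arrays with the largest Gapdh difference between 3 prime and 5 prime probe sets, whose part was not tested.

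The other effects at E8.5 that passed with the block were of similar size. Spp2, a secreted phosphoprotein of the cystatin family, had levels of 11.76, 11.17 and 12.86 in wild type and 9.98, 9.69 and 11.28 in Norrin, an effect of -1.62 (adjusted p = 0.335, and 0.000273 with the block). The spread between replicates was wide within each genotype and alike in its order, replicate 3 above 1 above 2. Another probe set of Spp2, with a mean level of 4.52, gave -0.12 (limma, adjusted p = 0.863). Cfi, the protease of complement factor I, had an effect of -1.53 (adjusted p = 0.381, and 0.0113 with the block). Serpind1, heparin cofactor II, an inhibitor of thrombin, had one of -1.22 (0.462, and 0.0252 with the block). For Plg, the zymogen of the clot-dissolving protease plasmin, the effect was -0.96 (0.559, and 0.0287 with the block), for its inhibitor Serpinf2 -0.73 (0.694, and 0.0287 with the block) and for Ambp -0.69 (0.406, and 0.0461 with the block). Alb, at 6.08 to 6.40 in wild type and 6.09 to 6.52 in Norrin, had an effect of 0.04 at this stage. The deposited values carry no detection calls, so whether such low values exceed background is not known.

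At E10.5, ectopic Norrin lowered 10 of the 37 genes by limma and raised 0, where 4.07% of all genes were called and 2.22% were lower. The 10 were Saa4, Serpina1c, F13b, Serpind1, Cfi, Plg, Itih2, Ambp, Itih4 and Itih1. An unadjusted p under 0.05 was reached by 22 of the 37 and by 2555 of all 18193 genes. The median effect over the 37 was -0.88 (log2), against -0.00 over all genes. Of the 37 effects, 33 were below 0, while 49.0% of all genes had effects above 0. More than 2-fold lower were 17 genes, as were 1.39% of all genes. With the replicate block 22 were lower and 1, Amn1, was higher, where 6.8% of all genes were lower. In 22 genes every Norrin pool lay below every wild type pool, which held for 11.5% of all genes.

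**Figure D1:**
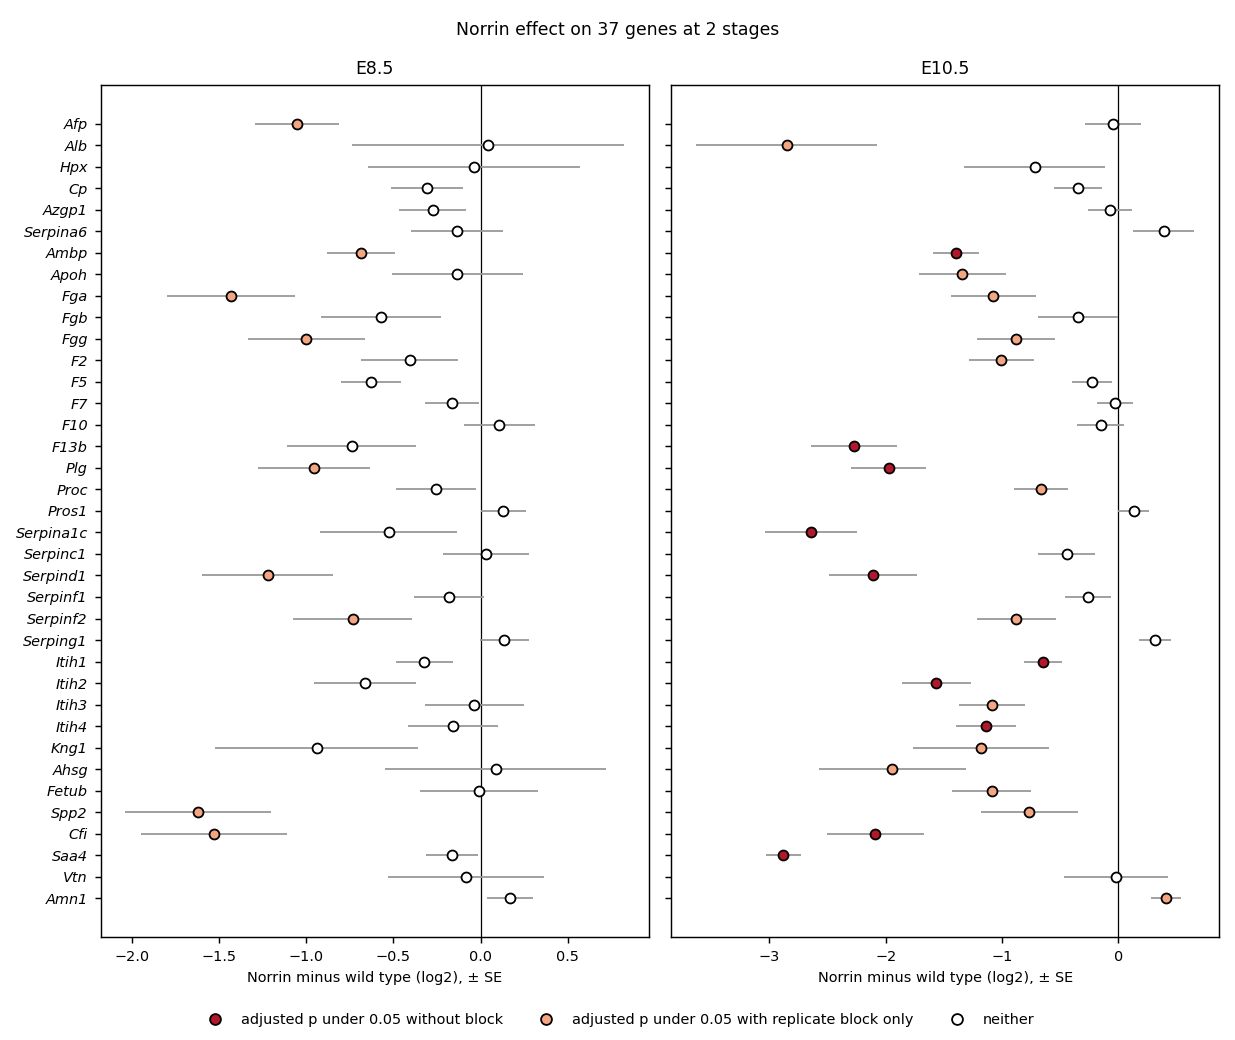
Norrin effect (Norrin minus wild type, log2) on each of the 37 genes at E8.5 (left) and E10.5 (right), with bars for the standard error and 3 arrays a group; filled points passed limma at an adjusted p under 0.05 without (dark) or only with (light) the replicate block. At E8.5 the median lies at -0.28 and 0 genes passed without the block, at E10.5 it lies at -0.88 and 10 passed, all lower; the horizontal scales differ.

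Among proteins of complement and the acute phase, Saa4, a constitutive serum amyloid A of lipoproteins, had the largest effect. Its levels at E10.5 were 9.01, 9.15 and 8.78 in wild type and 5.96, 6.22 and 6.13 in Norrin. The spread within each group was small beside the gap between them, and the Norrin pools lay close to the values deposited for E8.5, which come from another run. There, wild type had 6.30, 6.37 and 6.62 and Norrin 6.10, 6.51 and 6.20, with overlap. The effect at E10.5 was -2.88 (SE 0.15, 7.36-fold lower, adjusted p = 3.07e-06), and another probe set gave -1.79. Cfi had levels of 12.41, 12.50 and 12.14 in wild type and 9.67, 10.88 and 10.23 in Norrin, 4.26-fold lower (log2 -2.09, SE 0.42, adjusted p = 0.015). Its call was lost without wild type replicate 1 or 2 or Norrin replicate 1 or 3 of this stage (adjusted p = 0.0525, 0.0578, 0.0645 and 0.0594). Vtn, vitronectin, did not pass, at 9.18, 10.62 and 8.26 in wild type and 9.04, 9.87 and 9.08 in Norrin (effect -0.02).

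**Figure D2:**
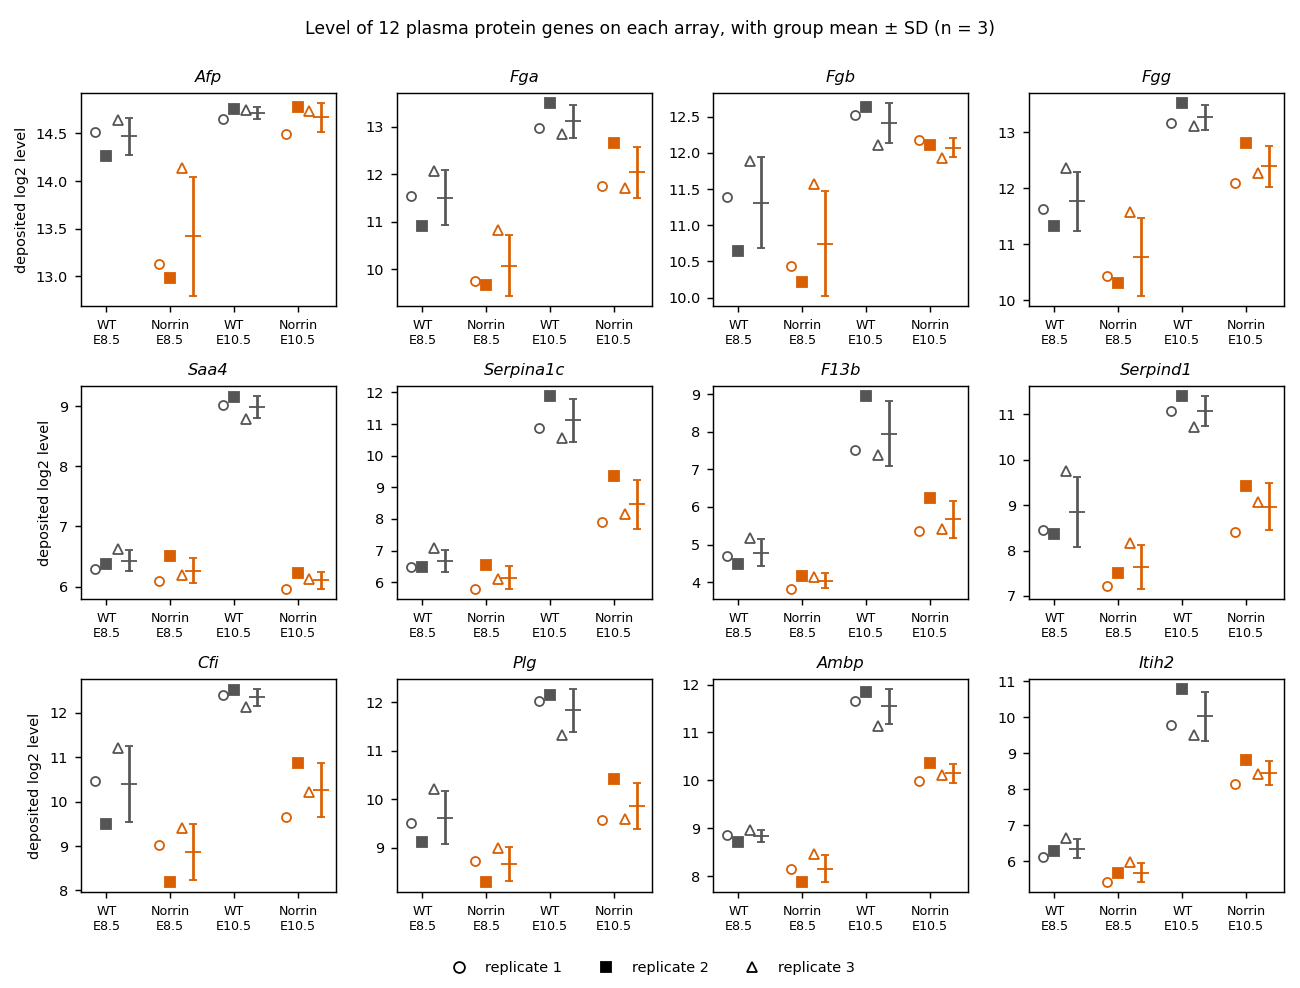
Deposited log2 level of 12 genes on each array, by genotype and stage, with symbols for the replicate number and bars for the group mean ± SD (n = 3). Saa4 in Norrin stays at 5.96 to 6.22 at E10.5 while wild type lies at 8.78 to 9.15, and the fibrinogen chains keep the same order of replicates in wild type and Norrin at E8.5.

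Among 6 serpins, most of them inhibitors of proteases, 2 were lower. Serpina1c, which inhibits neutrophil elastase, had levels of 10.87, 11.89 and 10.57 in wild type and 7.90, 9.35 and 8.15 in Norrin, 6.26-fold lower (log2 -2.65, SE 0.39, adjusted p = 0.00316). It belongs to a family of near-identical copies that share probes, so the value may stand for several of them. Serpind1 had levels of 11.08, 11.41 and 10.73 against 8.41, 9.42 and 9.07, 4.31-fold lower (log2 -2.11, SE 0.38, adjusted p = 0.0079). In both genes the groups stood more than 1 log2 apart. Serpinf2 passed with the block alone (-0.88, adjusted p = 0.241, and 0.00211 with the block). Serpinc1, which is antithrombin, Serpinf1 and the C1 inhibitor Serping1 did not pass, with effects of -0.45, -0.26 and 0.32. The effects of the 6 thus ran from -2.65 to 0.32.

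Of the 4 genes of the inter-alpha-trypsin inhibitor heavy chain family, 3 were lower, as was Ambp, the precursor of bikunin, the light chain of that inhibitor. Itih2 had levels of 9.78, 10.79 and 9.51 in wild type and 8.16, 8.81 and 8.42 in Norrin (log2 -1.57, SE 0.29, adjusted p = 0.0104), and without Norrin E10.5 replicate 1 the adjusted p was 0.0515. Itih4 had levels of 7.41, 7.99 and 6.82 against 6.43, 6.23 and 6.15 (-1.14, adjusted p = 0.0295), and Itih1 7.61, 7.68 and 7.03 against 6.70, 6.86 and 6.82 (-0.65, adjusted p = 0.045). No pool of either genotype crossed into the other group. The calls of Itih4 and Itih1 were fragile: without wild type E10.5 replicate 2 their adjusted p was 0.0958 and 0.177, and they were lost in 8 and 12 of 20 alternative settings. Itih3 passed with the block (-1.08, adjusted p = 0.0552, and 0.0142 with the block). Ambp had levels of 11.66, 11.84 and 11.13 against 9.98, 10.36 and 10.11, 2.63-fold lower (log2 -1.40, SE 0.19, adjusted p = 0.00234).

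In the clotting and clot-dissolving system, 2 of 6 zymogens and factors were lower. F13b, the carrier subunit of the fibrin-crosslinking factor XIII, had levels of 7.51, 8.96 and 7.39 in wild type and 5.37, 6.25 and 5.41 in Norrin, 4.84-fold lower (log2 -2.27, SE 0.37, adjusted p = 0.00516). Plg had levels of 12.02, 12.15 and 11.32 against 9.57, 10.42 and 9.59, 3.93-fold lower (log2 -1.97, SE 0.32, adjusted p = 0.00516). F2, prothrombin, had an effect of -1.01 (adjusted p = 0.0705, and 0.000663 with the block). F5, F7 and F10 did not pass, with effects of -0.23, -0.03 and -0.15. Of the anticoagulant pair, the protease Proc had -0.66 (adjusted p = 0.169, and 0.00611 with the block) and its cofactor Pros1 0.13 (adjusted p = 0.818).

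The fibrinogen chains kept at E10.5 the order of effects they had at E8.5. Fga had levels of 12.98, 13.50 and 12.85 in wild type and 11.75, 12.65 and 11.70 in Norrin, an effect of -1.07 (SE 0.37, adjusted p = 0.161, and 0.0013 with the block). Fgg had levels of 13.17, 13.53 and 13.12 against 12.10, 12.81 and 12.27, an effect of -0.88 (adjusted p = 0.225, and 0.00136 with the block). Fgb had levels of 12.52, 12.63 and 12.11 against 12.19, 12.10 and 11.93, an effect of -0.35 (adjusted p = 0.818, and 0.129 with the block). For Fga and Fgg the groups did not overlap, while for Fgb they did. A difference between the chains was not tested.

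Afp and Alb, neighbours on chromosome 5, gave unlike values. Afp had levels of 14.64, 14.76 and 14.74 in wild type at E10.5 and 14.49, 14.78 and 14.74 in Norrin, all near the top of the scale, with an effect of -0.05 (adjusted p = 0.986). Its other probe sets gave 0.05, 0.01, -0.10 and -0.27. Alb had levels of 8.81, 12.85 and 9.06 in wild type and 7.01, 8.01 and 7.15 in Norrin. The groups did not overlap, but wild type replicate 2 lay 3.91 above the mean of the other wild type pools. The effect of -2.85 did not pass (SE 0.78, adjusted p = 0.0675, and 0.00605 with the block), and without that array it was -1.55 and passed (adjusted p = 0.012).

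Of the other carriers, Apoh, a phospholipid-binding glycoprotein, passed with the block (-1.34, adjusted p = 0.0734, and 0.00574 with the block), although its other probe set gave 0.26. Without wild type E10.5 replicate 2 its effect was -0.80 (adjusted p = 0.14). The heme binder Hpx, the copper protein Cp, Azgp1 and the corticosteroid carrier Serpina6 did not pass, at -0.72, -0.35, -0.07 and 0.39. The 4 genes of the cystatin family passed with the block alone: the fetuins Ahsg (-1.94, adjusted p = 0.137, and 0.0312 with the block) and Fetub (-1.09, 0.113, and 0.0164 with the block), Kng1 (-1.18, 0.407, and 0.00743 with the block) and Spp2 (-0.77, 0.486, and 0.0012 with the block). Kng1 has a near copy, Kng2, whose transcripts may add to its value. Another probe set of Spp2 gave -0.27 and did not pass. Without wild type E10.5 replicate 2 the effects of Ahsg, Fetub and Kng1 were -0.87, -0.54 and -0.75. Amn1 had an effect of 0.41 (adjusted p = 0.129, and 0.02 with the block).

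Wild type E10.5 replicate 2 stood apart for many of these genes. It was the highest wild type pool for 30 of the 37 genes, against 24.6% of all genes, and 11 of the 37 lay in it more than 1 log2 above the mean of the other pools, as did 103 of the 18193 genes (0.566%). Ahsg had wild type levels of 7.01, 10.20 and 6.91, Hpx 8.08, 10.86 and 7.97, and Fetub 6.42, 8.06 and 6.43. In Norrin, replicate 2 was the highest for 22 of the 37 genes (26.3% of all genes), and 2 lay more than 1 above. Among 19 enzymes of hepatocytes the summed level in wild type at E10.5 was 12.60, 12.57 and 12.31, so this sum was not highest in replicate 2. The median distance of these enzymes from the wild type mean was 0.02, 0.01 and -0.08. Such summaries do not show single genes, and Hpd, an enzyme of this list, was highest in replicate 2. The part of hepatocytes in these values was not tested.

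**Figure D3:**
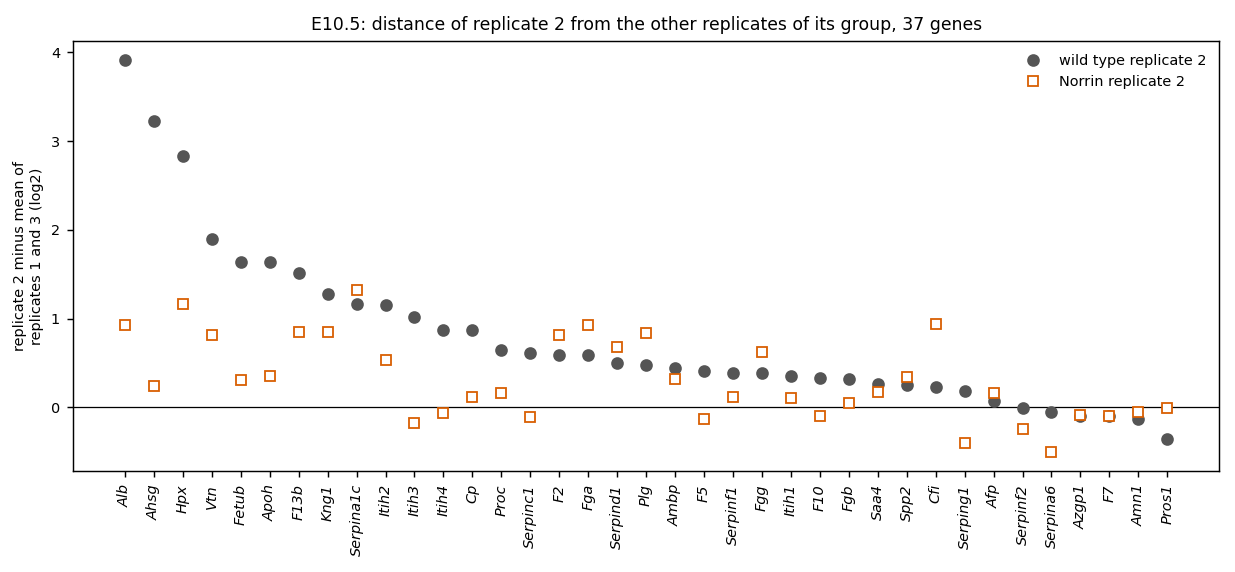
For each of the 37 genes, the level in replicate 2 minus the mean of replicates 1 and 3 of the same group at E10.5 (log2), for wild type (filled circles) and Norrin (open squares). Alb, Ahsg and Hpx lie 3.91, 3.23 and 2.84 above in wild type, and 11 genes lie above 1 in wild type and 2 in Norrin.

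Without that array 9 of the 37 genes were lower and 0 higher, and the median effect was -0.68. Over all genes 252 were then lower and 183 higher, against 404 and 337 with all arrays. Of the 10 calls, 7 were kept: Saa4, Serpina1c, F13b, Serpind1, Plg, Itih2 and Ambp. Cfi, Itih4 and Itih1 were lost, and Alb and Ahsg (-0.87, adjusted p = 0.0221) were gained. The effects of Hpx and Vtn turned from -0.72 and -0.02 to 0.23 and 0.61, neither past the threshold. Without replicate 2 of both genotypes 10 were lower (216 over all genes), with a median of -0.68, and 8 of these were among the 10 calls. Without Norrin E10.5 replicate 2 alone 9 were lower (318 over all genes). Without Norrin E10.5 replicate 1 the calls fell to 6, all lower (225 lower over all genes). Without wild type replicate 3 they came to 12, all lower (304 lower over all genes).

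**Figure D4:**
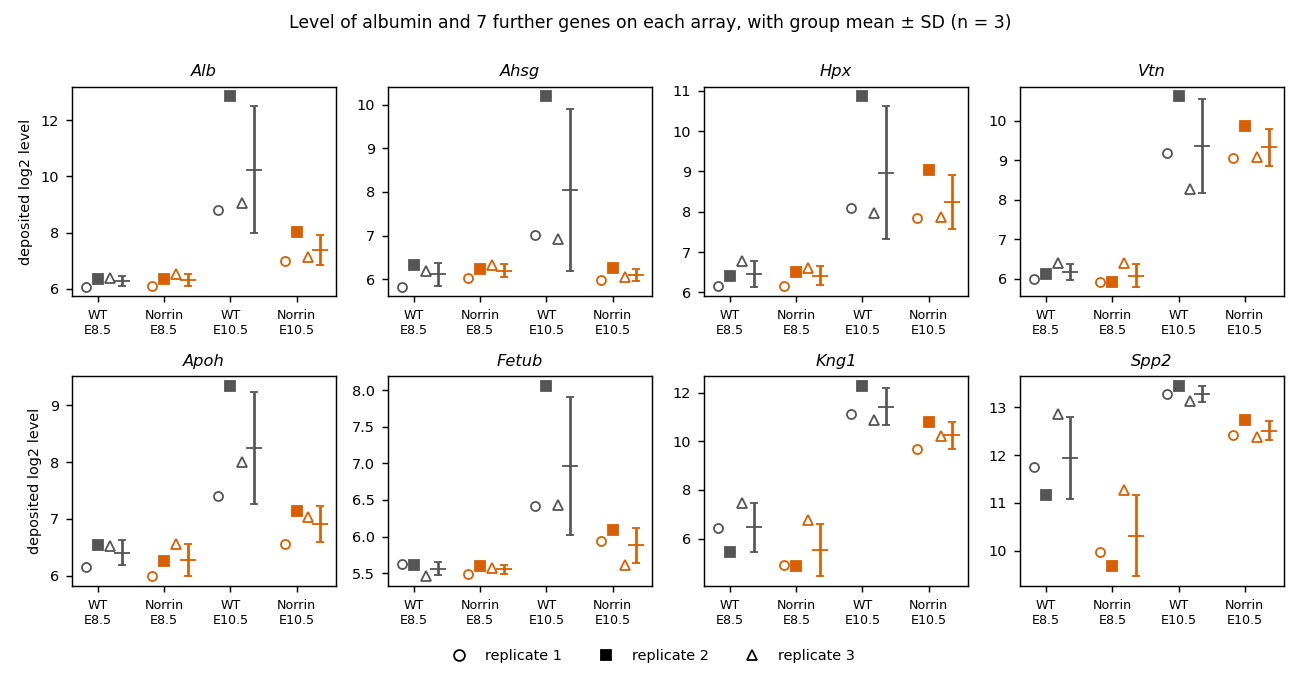
Deposited log2 level of 8 genes on each array, by genotype and stage, with symbols for the replicate number and bars for the group mean ± SD (n = 3). Wild type replicate 2 at E10.5 (filled square) stands above the other wild type pools for Alb (12.85), Ahsg (10.20), Hpx (10.86) and Fetub (8.06).

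Across the 37 genes the shift was seen in every Norrin pool at E10.5. The median distance of the 37 from the wild type mean was -0.93, -0.54 and -1.0 in the Norrin pools and 0.01, 0.32 and -0.34 in the wild type pools, so the groups did not overlap. The wild type pools make up that mean, so their distances centre near 0 by construction. Over all genes the distances were 0.04, -0.03 and -0.02 in Norrin and 0.06, -0.04 and -0.03 in wild type. At E8.5 it was -0.41, -0.25 and -0.02 in Norrin and -0.12, -0.13 and 0.25 in wild type, with Norrin replicate 3 inside the wild type range.

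The Norrin effect differed between stages for Saa4 alone by limma, where 0.0934% of all genes were called. At both stages 29 of the 37 genes had effects below 0, a share not counted over all genes. The Saa4 effect was lower at E10.5 by 2.72 than at E8.5 (log2 -2.72, SE 0.21, adjusted p = 0.000339). With the replicate block 4 passed, where 2.07% of all genes did: Saa4, Serpina1c (-2.12, adjusted p = 0.254, and 0.00899 with the block) and F13b (-1.54, 0.449, and 0.019 with the block), with the more negative effect at E10.5, and Spp2 (0.85, 0.865, and 0.0166 with the block), with the more negative effect at E8.5. Afp had a difference of 1.01 (adjusted p = 0.443, and 1.36 with an adjusted p of 0.0406 without Norrin E8.5 replicate 3). All its E10.5 values lay near the top of the scale, where a lower effect at E10.5 could be hidden, so this difference may be overstated. Its other probe sets, some of them far from the top, gave differences of 0.71, 0.62, 0.48 and -0.15 and did not pass. Alb had -2.90 (adjusted p = 0.551), and this passed in 0 of the 12 fits that left out 1 array. Without wild type E10.5 replicate 2 it was -1.59 (adjusted p = 0.198). Without both E10.5 replicates 2, a setting chosen after seeing the data, it was -1.90 and passed (adjusted p = 0.0216). Since each stage has its own wild type, this comparison is one of effects within runs.

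The same comparison was made for other genes of these cells. Of 38 further plasma protein and apolipoprotein genes, 5 were lower and 1 was higher at E10.5 (12 and 1 with the block, 3 and 0 without wild type replicate 2), with a median of -0.18. The lower ones included the apolipoproteins Apom (-1.40, adjusted p = 0.00196) and Apoc2 (-1.22) and the lectin Mbl2 (-1.30), and the higher one was Igfbp2 (0.92). At E8.5 1 was lower, Apoa4 (-1.18, adjusted p = 0.0449). The carriers of thyroxine and retinol, Ttr and Rbp4, had effects of -0.04 and -0.34 at E10.5 and did not pass.

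Of 30 intracellular and membrane genes of visceral endoderm, 4 were lower at E10.5 and 0 higher (9 and 3 with the block), with a median of -0.17. They were the transcription factors Cebpa (-2.99, adjusted p = 0.000587), Nr1h4, a bile acid receptor (-2.02), and Hnf4a (-0.71, adjusted p = 0.0149), and the tetraspanin Tspan8 (-1.91). Cebpa had a mean of 10.77 ± 0.25 in wild type and 7.78 ± 0.48 in Norrin. The endocytic machinery did not pass: Cubn, Amn and Dab2 had effects of -0.24, 0.08 and 0.20. The summed level of the 30 genes was 16.48 to 16.73 in wild type and 16.25 to 16.43 in Norrin at E10.5, and 16.64 to 16.78 and 16.42 to 16.69 at E8.5.

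Of 13 genes that regulate clotting on other cells, the plasminogen activator Plat was higher at E10.5 (2.15, adjusted p = 0.0014) and Vwf lower (-0.92), and the median was -0.01. With the block 4 were higher and 2 lower, and without wild type E10.5 replicate 2 the counts were 2 and 0. Markers of other cells also changed at E10.5. Of 17 parietal endoderm genes, 5 were higher and 0 lower (8 with the block), led by Pth1r (2.45), Plat and Col4a2 (1.23), and their summed level was 15.57 to 15.72 in wild type and 16.11 to 16.21 in Norrin. Of 20 erythroid genes, 13 were lower and 0 higher (6 without wild type replicate 2), led by Hemgn (-2.08), Klf1 (-1.83) and Tal1 (-1.65), with summed levels of 16.08 to 16.68 and 15.76 to 15.93. Of 16 mesenchyme genes 3 were higher (7 with the block, 1 without wild type replicate 2), Pdgfra (1.89), Tagln (1.42) and Acta2 (0.54), with summed levels of 16.12 to 16.36 and 16.54 to 16.59.

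Other lists gave 0 to 2 calls. Of 18 endothelial genes 1 was higher, Flt1 (1.69), and 1 lower, Plvap (-0.99), of 14 macrophage genes 1 was lower, Fcgr3 (-1.98), and of 9 decidual genes 1 was higher, Wnt4 (1.00), and 0 without wild type E10.5 replicate 2. Of 19 hepatocyte enzymes 1 was lower, Hgd (-2.73), with summed levels of 12.31 to 12.60 in wild type and 11.83 to 12.03 in Norrin. Of 12 trophoblast genes and 13 neural genes limma called 0, and 1 gene of each list had an unadjusted p under 0.05. The largest effects were those of Tpbpa (2.08) and Sox2 (0.83). The trophoblast genes were highest in Norrin replicate 2 of either stage, with summed levels of 12.34 (E8.5) and 13.55 (E10.5), against 10.57 to 11.47 on the other arrays. With the block 3 endothelial, 2 decidual and 1 neural gene were higher, and 3 hepatocyte enzymes were lower and 1 higher. Apart from Apoa4, limma called 0 genes of these lists at E8.5, with 0 to 8 a list at an unadjusted p under 0.05. The part of these cells in the values of the 37 genes was not tested.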

How the data were processed

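RNA of pooled yolk sacs was hybridised to Affymetrix arrays, and the authors deposited log2 values, 1 column an array. The submitters' processing notes name RMA as the tool, without a version. RMA corrects background, quantile-normalizes and summarises probes by median polish. Arrays within a stage shared 26 to 93 identical values and arrays across stages 0, so each stage was normalized in its own run. Of 45101 probe sets, 64 controls, 932 with several genes and 9160 unnamed here were left out. The probe set with the highest mean stood for a gene.

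The test was limma 3.58.1 in R 4.3.3 with 1 mean per group over all 12 arrays, two-sided, with Benjamini-Hochberg adjustment over 18193 genes and a threshold of 0.05. It was tested on simulated data. The median standard error was 0.159, and the number of arrays limits the precision. Deviations from the group means were correlated between wild type and Norrin arrays. Same-numbered arrays gave 0.73, 0.32 and 0.73 at E8.5 and 0.51, 0.21 and 0.22 at E10.5. Arrays of unlike number gave -0.72 to 0.30 at E8.5 and -0.35 to 0.16 at E10.5. The gap was small for wild type replicate 2. It gave 0.30 with Norrin replicate 1 at E8.5 and 0.16 with Norrin replicate 3 at E10.5. Replicate numbers were taken to pair arrays within a stage, from the data and not from the labels. Fits with replicate number as a block within each stage are called the block. Summed levels are log2 of the sum of linear values over a list. Genes described in full were Afp, Alb, the fibrinogen chains and those past the threshold in a Norrin contrast, and from each other list up to 3 genes past the threshold or the largest effect. The members, lists and tests were chosen with earlier results of these data known.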

Additional observations from a re-analysis of the deposited data

Results flagged for a closer look

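The Norrin effect on Saa4 differed between the stages by limma's test of the difference itself (log2 -2.72, adjusted p = 0.000339, 3 arrays a group). At E8.5 its effect was -0.16, at E10.5 -2.88. All 3 Norrin pools lay below all 3 wild type pools at E10.5 and not at E8.5. The difference passed in all 20 alternative settings that were run, with values from -2.90 to -2.09, and its other probe set gave -1.46 (adjusted p = 0.0341).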

How the results depend on the processing

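The alternatives were 2 other scalings, the mean over a gene's probe sets, dim genes left out, a trended and robust prior, a fit to the compared arrays alone, replicate number as a block within or across stages, each array left out in turn and, chosen after seeing the data, replicate 2 of both E10.5 groups left out. The counts, medians over the 37 genes and effects of called genes kept their direction under all of these. Several effects that did not pass changed sign, among them those of Hpx and Vtn at E10.5 without wild type E10.5 replicate 2 (0.23 and 0.61). With the replicate block within stages, the pairing being taken from the data, calls among the 37 genes rose from 0 to 9 at E8.5, from 10 to 23 at E10.5 and from 1 to 4 for the difference between stages. Leaving out single arrays gave 0 to 1, 6 to 12 and 1 to 2 calls, and leaving out both E10.5 replicates 2 gave 2 for the difference. Over all genes the block took the calls from 14 to 257, from 741 to 2400 and from 17 to 376. Leaving out single arrays gave 1 to 20, 353 to 894 and 5 to 36 over all genes. The median rise in wild type went from 1.50 to 1.20 with centred arrays, to 1.89 without dim genes, which left 28 of the 37, and to 1.27 to 1.81 without single arrays. Of 228 values of named genes under alternatives, 203 kept their call, and the lost calls were of Itih1, Itih4, Cfi and Itih2. Causes were not tested. With 3 pools a group and no detection calls, small changes of low genes could not be seen.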

Other observations

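Some genes outside the list followed the pattern of wild type E10.5 replicate 2. Agt, angiotensinogen, had wild type levels of 7.50, 9.07 and 7.67 at E10.5 and 7.26, 7.0 and 7.02 in Norrin. A2m, a broad protease inhibitor of plasma, had 10.42, 11.93 and 10.54 in wild type and 9.51, 10.13 and 10.65 in Norrin. Hpd, an enzyme of tyrosine breakdown on the list of hepatocyte enzymes, had 6.63, 7.75 and 6.66 in wild type and 6.66, 6.66 and 6.63 in Norrin. These genes were chosen after their values were seen, and none of their Norrin effects passed limma's threshold (adjusted p = 0.133, 0.273 and 0.637); with the block that of Agt did (adjusted p = 0.0485).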
